A study of Homo sapiens with 2 samples.

Results

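The LSD2 intervals of chromosome 6 outside the histone and MHC span are described here: 26921 distinct intervals, or 7.26% of the 370863 in the deposited list. They came from chromatin immunoprecipitation followed by sequencing (ChIP-seq) of LSD2 in HepG2, a human line from a liver tumour, and no genetic change or added agent is given for the cells. The groups were LSD2 ChIP (1 library, pulled down with a rabbit polyclonal antibody) and input (1 library, no antibody), both from cells in high glucose medium and sequenced on Ion PGM and Proton instruments. Read sets of LSD2 ChIP and of input carry different run dates in the file header, so a difference of run and one of LSD2 cannot be told apart. The authors called the intervals with MACS as places where LSD2 ChIP exceeded input. The file gives positions on hg19 and no height, fold or p-value, so no interval can be ranked by strength and no difference can be set against replicate error. HepG2 is aneuploid, its copy number along chromosome 6 was not measured here, and more DNA from a stretch and more LSD2 on it cannot be told apart in these counts. A list of positions also holds no expression to check the cells against.

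Members were chosen from the called positions themselves: every chromosome 6 interval, identical lines counted once, whose midpoint lay outside bases 25700000 to 33448354. That span, with its histone and MHC genes, held another 1273 intervals. The divisions used below were also chosen on these positions, so all values that follow are descriptions and none is tested. The arms were divided at base 60000000, and the long arm, 6q, was divided at base 111000000 into a distal and a proximal part. At the start of the left-out span, the last member ran from 25698926 to 25699273 (348 bp wide) and the first interval left out from 25721707 to 25721914 (208 bp). At its end, the last interval left out ran from 33437412 to 33437592 (181 bp) and the first member from 33461704 to 33461908 (205 bp). Beside the division of 6q, the first distal interval ran from 111008784 to 111009052 (269 bp) and the last proximal one from 110995362 to 110995728 (367 bp). No interval lay near the division of the arms, which falls in a stretch without intervals.

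KDM1B encodes LSD2, which uses a flavin cofactor to remove methyl groups from histone H3 and is known to act within the bodies of transcribed genes as well as in the oocyte, where it is needed to set maternal imprints. KDM1B itself lies on chromosome 6 in the RefSeq gene table. MAN1A1, the gene with the densest bin described below, encodes a Golgi mannosidase that trims mannose from N-linked glycans of secreted and membrane proteins. Gene positions on hg19 were not used here apart from the span of MAN1A1, so other bins are given by position alone.

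The promoter of MAN1A1 is shown because the gene body held many intervals while none was called at its start. The 250 bases before the start are from RefSeq (GRCh38.p14, minus strand), 5′ to 3′, with each CpG dinucleotide in capitals:

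MAN1A1 promoter: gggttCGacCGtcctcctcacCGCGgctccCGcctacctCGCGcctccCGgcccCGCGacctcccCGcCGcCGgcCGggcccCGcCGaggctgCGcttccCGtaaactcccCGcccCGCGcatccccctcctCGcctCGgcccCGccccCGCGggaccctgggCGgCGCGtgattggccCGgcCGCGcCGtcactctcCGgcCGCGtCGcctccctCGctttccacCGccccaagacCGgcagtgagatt

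This stretch held 40 CpG dinucleotides, and 2.16% of the 35116 promoter stretches of the same length in the table held as many or more, with a median of 11. Its G and C content was 78.4%. On hg19 the start of MAN1A1 was taken as the upper end of its span, base 119670931, since the gene runs on the minus strand. No LSD2 interval was called there: 7975 bp without one, from 119663847 to 119671821, took in the start. The upper quartile of gaps between members was 7633 bp, and gaps inside the gene reached 10918 and 8916 bp. Intervals covered 18.6% of the gene and 4.81% of the flank before its start, so most bases had none. Whether LSD2 is absent from the promoter was not tested. The nearest interval before the start began 891 bp away (119671822 to 119672312, 491 bp wide), and the nearest inside the gene ended 7085 bp away (119663163 to 119663846, 684 bp wide). No sequence of the intervals themselves is shown, since no genome of their build was used here.

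Chromosome 6 carried many intervals for its length. Members stood at 168 per Mb of searched sequence, against 132 per Mb on the other 21 autosomes together, a ratio of 1.28 (exact 95% interval 1.26 to 1.30, for counting error only and with neighbouring intervals taken as independent). Searched sequence here means a chromosome from its first to its last interval without stretches of over 500 kb that hold none, which left 160 Mb for the members. By autosome the members ranked second of 22, below chromosome 2 at 177 per Mb and above chromosome 10 at 152 per Mb. The other 21 autosomes ran from 88.0 per Mb on chromosome 19 to 177 per Mb on chromosome 2, with a median of 124.5 per Mb. The members covered 6517 kb, or 4.07% of their searched sequence, against 3.08% on the other autosomes.

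Member intervals were also somewhat wider and closer together than those of the other autosomes when pooled. Their median width was 182 bp (95% interval 180 to 184 bp), against 173 bp (172 to 173 bp) on the other autosomes. Narrow intervals, here those of at least 140 but under 170 bp, were 43.8% of members and 47.2% of intervals on the other autosomes. Intervals of 400 bp or more made up 9.11% of members, against 7.88% on the other autosomes. By autosome the members ranked 3 of 22 in median width, below chromosome 2 at 187 bp and chromosome 17 at 185 bp, and 8 of 22 in the share of 400 bp or more, which was highest on chromosome 17 at 12.4%. The median gap to the next interval was 3473 bp for members (95% interval 3411 to 3539 bp), against 4203 bp (4180 to 4225 bp) on the other autosomes. Gaps under 1 kb were 19.7% of those between members, against 17.4% on the other autosomes. Gaps over 20 kb were 3.96% between members, against 7.84% on the other autosomes. Chromosome 2, with a median gap of 3216 bp, was the one autosome with a shorter median gap than the members. In density the members resembled the left-out span beside them, with a ratio of 1.02 (exact 95% interval 0.968 to 1.08) to its 164 per Mb. The widths differed there: 9.11% of members reached 400 bp, whereas 15.5% of the intervals of the histone and MHC span did.

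The short arm and the long arm held LSD2 intervals at nearly the same density. The 8693 intervals of 6p stood at 171 per Mb over 50.9 Mb, and the 18228 of 6q at 167 per Mb over 109 Mb, a ratio of 1.02 (exact 95% interval 0.996 to 1.05). Median widths were 185 bp on 6p (95% interval 181 to 189 bp) and 180 bp on 6q (178 to 182 bp). Median gaps were 3510 bp on 6p (3401 to 3627 bp) and 3454 bp on 6q (3383 to 3538 bp). The intervals of both gaps overlap, and those of both widths share only the stretch from 181 to 182 bp. Among 100 kb bins, 6p and 6q had a median of 16 intervals each.

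Within 6q the density differed along the arm. The 11356 distal intervals stood at 189 per Mb over 60.04 Mb, against 140 per Mb for the 6872 proximal ones over 49.1 Mb, a ratio of 1.35 (exact 95% interval 1.31 to 1.39). The density of 6p lay between them, at 0.903 times that of distal 6q and 1.22 times that of proximal 6q, and proximal 6q came near the 132 per Mb of the other autosomes. The position of the division was chosen with these counts known. Windows of 1 Mb held 189 ± 42.6 intervals on distal 6q (SD over 60 windows), against 140 ± 30.1 on proximal 6q (SD over 49 windows). The windows overlapped widely, from 100 to 297 distal and from 82 to 232 proximal. Of the 60 distal windows, 53 were above the proximal median of 137, and 10 were above the highest proximal window.

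Width and spacing also differed between distal and proximal 6q, and no other division was examined for them. Gaps shorten as density rises, so spacing is not a separate result. The median width was 190 bp on distal 6q (95% interval 186 to 194 bp), against 170 bp on proximal 6q (168 to 172 bp). Intervals of 400 bp or more made up 10.3% of the distal set and 6.48% of the proximal one, a ratio of 1.59. Narrow intervals were 41.8% of the distal set and 48.9% of the proximal one. Distal intervals were thus both more numerous and wider. The median gap was 3071 bp on distal 6q (2991 to 3168 bp), against 4302.5 bp on proximal 6q (4136 to 4451 bp). Gaps over 20 kb were 2.79% of distal gaps and 6.37% of proximal gaps. Coverage came to 4.68% of distal and 3.21% of proximal sequence. A cutoff on p calls more and wider intervals wherever more reads fall, and the reads per stretch were not analysed here, so their part in these joint shifts was not tested.

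**Figure D1:**
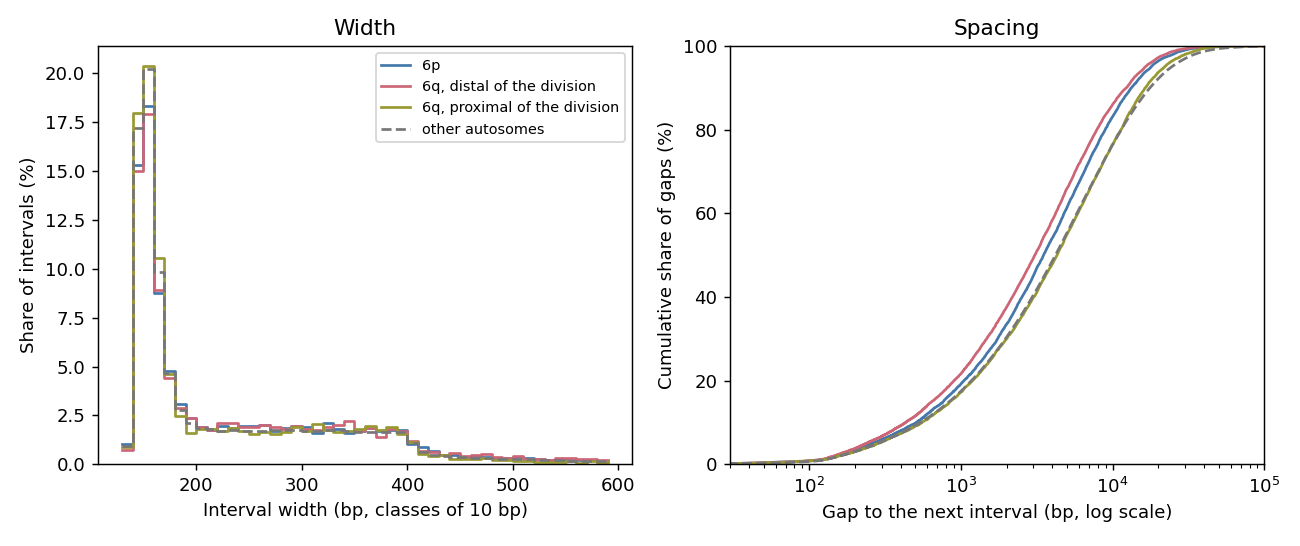
Left, the share of intervals in classes of 10 bp of width; right, the cumulative share of gaps to the next interval on a log scale, for 6p, distal 6q, proximal 6q and the other autosomes. Proximal 6q runs close to the other autosomes in both, while distal 6q has fewer intervals in the narrow class (41.8%, against 48.9% on proximal 6q) and shorter gaps (median 3071 bp, against 4302.5 bp on proximal 6q).

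Blocks of 10 Mb show where along the chromosome the intervals were dense. On 6p the first block stood at 181 per Mb and the block from 50000001, next to the centromere, at 194 per Mb, the highest of the arm. Between them the 6p blocks ran from 148 per Mb (from 30000001, beside the left-out span) to 180 per Mb (from 20000001). On 6q the block from 60000001 stood at 155 per Mb. The next 4 blocks held 134, 143, 128 and 142 per Mb, and the one from 90000001 was the lowest of these. Density then stood at 201 per Mb from 110000001, 201 per Mb from 120000001, 198 per Mb from 130000001 and 214 per Mb from 140000001. It was 182 per Mb from 150000001, 142 per Mb from 160000001 and 120 per Mb in the last 1.04 Mb. Distal 6q was therefore not uniform: its dense part ran over roughly 5 blocks, and the end of the arm was as sparse as proximal 6q. The block from 140000001 also had the largest median width (201 bp) and the shortest median gap (2668 bp) of all blocks, and the block from 90000001 a median width of 168 bp and the longest median gap (4951 bp).

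**Figure D2:**
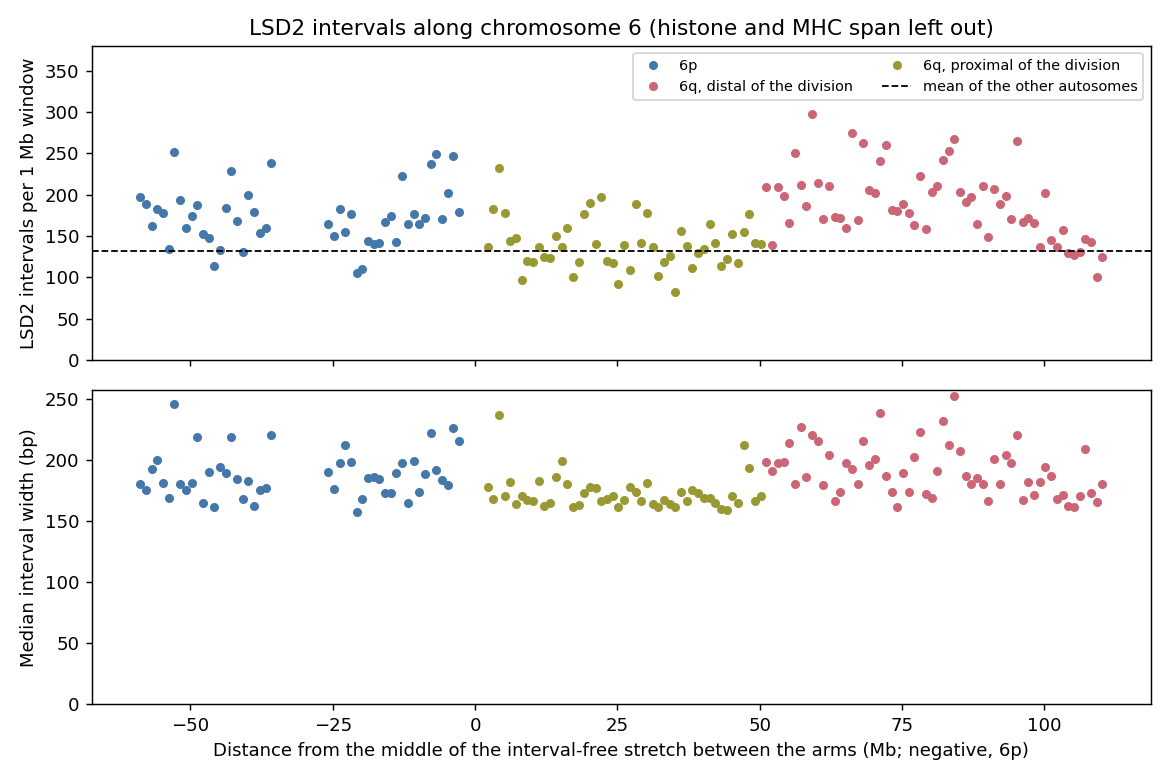
Each point is a 1 Mb window of chromosome 6 placed by its distance from the middle of the interval-free stretch between the arms; the upper panel gives the number of LSD2 intervals, the lower one their median width, and the dashed line is the mean of the windows of the other autosomes. Windows averaged 174 intervals on 6p, 189 on distal 6q and 140 on proximal 6q, against 132 on the other autosomes.

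The 5 densest windows of 1 Mb all lay on distal 6q. The window from 119000001 to 120000000, which holds MAN1A1, had 297 intervals with a median width of 220 bp. Those from 126000001 and 144000001 followed, with 274 intervals (192 bp) and 267 intervals (252 bp). The window from 155000001 had 265 intervals (220 bp) and that from 128000001 had 263 (215 bp). The median width of the window from 144000001 was the largest of the 157 windows. The 3 sparsest windows lay on proximal 6q, with 82 intervals from 95000001, 92 from 85000001 and 97 from 68000001. In these sparse windows median widths were 161, 162 and 170 bp. The window from 95000001 includes a stretch of 156 kb without intervals, and whether reads can be placed there was not analysed.

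Windows with more intervals also had wider ones. Spearman's rho between count and median width was 0.68 over the 157 windows of 1 Mb, as a description, since windows share the libraries, their depth and local base composition. It was 0.54 within 6p (48 windows), 0.65 within distal 6q (60 windows) and 0.54 within proximal 6q (49 windows). The 39 densest windows, with 197 intervals or more, had median widths from 166 to 252 bp, with 201 bp in the middle. The 39 sparsest, with 138 intervals or fewer, ran from 157 to 199 bp, with 167 bp in the middle.

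At the scale of 100 kb, chromosome 6 had more dense bins than the genome at large, and most of them were on distal 6q. A bin was counted as dense at 24 intervals or more, which is 2 times the median of 12 over all chromosomes. Of 1599 bins of the members, 220 were dense, or 13.8% (95% Wilson interval 12.2% to 15.5%), against a background of 7.94% of the 28568 bins of all chromosomes. Distal 6q had 120 dense bins of 600, or 20% (17.0% to 23.4%), and proximal 6q had 28 of 491, or 5.70% (3.98% to 8.12%). On 6p, 72 of 508 bins were dense, or 14.2% (11.4% to 17.5%). The shares of 6p and distal 6q were above the background, and the interval for proximal 6q took it in. These intervals take neighbouring bins as independent, although dense bins often adjoined. The division of 6q was also chosen on these counts, so the intervals are no test. Dense bins held 24.1% of the members, with a median width of 220 bp and a median gap of 1953 bp, against 175 bp and 4217 bp in the remaining bins. The count of dense bins depends on the setting: with bins of 50 kb it was 618 of 3200 (19.3%, against 10.8% over all chromosomes), and among intervals of at least 173 bp it was 614 of 1599 (38.4%, against 20.7% over all chromosomes).

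**Figure D3:**
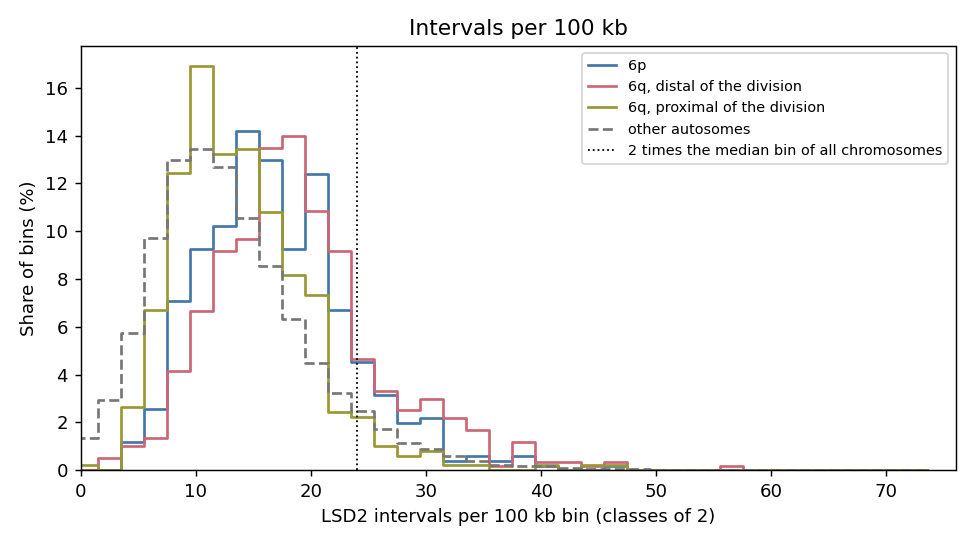
Share of 100 kb bins by the number of LSD2 intervals they hold, for 6p, distal 6q, proximal 6q and the other autosomes, with the dotted line at 24 intervals. Median bins held 16 intervals on 6p, 18 on distal 6q, 13 on proximal 6q and 12 on the other autosomes, and the bin at 56 lies in MAN1A1.

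Of the 10 densest bins, with ties ordered by covered sequence, 7 were on distal 6q, 1 on 6p and 2 on proximal 6q. The densest began at 119500001 and lay wholly inside MAN1A1, with 56 intervals of 287.5 bp median width that covered 19.5% of it; 6 bins of the 28568 over all chromosomes held more. The bin next to it, from 119600001, of which 70.9 kb is MAN1A1, ranked 10 with 40 intervals of 313.5 bp median width. Bins from 43500001 on 6p, 117800001 on distal 6q and 64900001 on proximal 6q also held 40, and the place among the 10 went to the bin with most covered sequence. The bin from 119400001, which holds the last 1.63 kb of the gene, had 26 intervals.

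Bins with 47 intervals lay on 6p from 17600001, on distal 6q from 126300001 and on proximal 6q from 79700001, and they differed in width. The 6p bin had a median width of 330 bp and 16.7% coverage, the distal one 253 bp and 13.7%, and the proximal one 175 bp and 11.2%. The proximal bin is the exception among the 10: in 9 of them the median width was above the 182 bp of all members. The other bins of the 10 lay on distal 6q from 131900001 (46 intervals, 285 bp), from 155100001 (45 intervals, 291 bp), from 144800001 (43 intervals, 327 bp) and from 143700001 (43 intervals, 261 bp), and on proximal 6q from 90400001 (44 intervals, 265 bp). At the other end, among bins without a gap over 50 kb, the 5 sparsest held 4 or 5 intervals. They began at 77400001, 81600001, 85700001 and 77300001 on proximal 6q and at 39200001 on 6p.

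Dense bins often stood side by side. The 220 dense bins formed 138 stretches, of which 87 were single bins and 19 had 3 bins or more. All 6 stretches of 4 bins or more lay on distal 6q, where 72 of the stretches were found, against 46 on 6p and 20 on proximal 6q. Dense bins were 20% of 600 bins on distal 6q, 14.2% of 508 on 6p and 5.70% of 491 on proximal 6q. Dense bins adjoin more often where their share is higher, so these counts are not a separate result. Stretches on the other autosomes are not given here. The longest stretches of the members had 6 bins, from 119100001 to 119700000 with 209 intervals and from 143300001 to 143900000 with 175. A stretch of 5 bins from 144700001 to 145200000 held 187 intervals with a median width of 267 bp, and another from 116200001 to 116700000 held 148 with 182 bp. On 6p the stretch with most intervals ran from 7400001 to 7700000, with 100 intervals in 3 bins, and the one proximal stretch of 3 bins ran from 64200001 to 64500000, with 88 intervals of 284 bp median width.

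MAN1A1 held 90 intervals over its 172.6 kb on hg19, chromosome 6 from 119498366 to 119670931. This is 52.2 per 100 kb (exact Poisson 95% interval 41.9 to 64.1, for counting error only), 3.11 times the density of all other members (exact 95% interval 2.50 to 3.82). Among intervals of at least 387 bp, the 90th percentile of width in the series, the ratio was 9.86 (6.73 to 13.9). The gene was singled out for this count, so the ratio describes and tests nothing. Cutting the members' sequence into 925 tiles of the gene's length gave a median of 28 intervals per tile and at most 79, so no tile reached the gene's 90. Since the gene was chosen for its count, this comparison also describes and tests nothing. Both flanks of the gene were sparser than the gene. The flank of the same length before its start held 32 intervals and the flank beyond its end 41, or 18.5 and 23.8 per 100 kb. The gene gave 90 of the 297 intervals in its 1 Mb window, and the remaining sequence of that window still held 25.0 per 100 kb. It also gave 43.1% of the 209 intervals in the stretch of 6 dense bins. In the RefSeq table (GRCh38.p14) its protein-coding neighbours are TBC1D32 on the side of its start and FAM184A on the side of its end.

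Intervals inside MAN1A1 were wide and tightly spaced. Gaps shorten and coverage rises with the count for which the gene was chosen, so neither is a separate result. Width also went with count over the 1 Mb windows of chromosome 6. Widths ran from 142 to 963 bp with a median of 296.5 bp, against 196 bp in the flank before the start and 201 bp in the flank beyond the end. Of the 90, 29 (32.2%) reached 400 bp, against 9.11% of all members, and 17 (18.9%) were narrow, against 43.8% of all members. Together they covered 18.6% of the gene, against 4.81% of the flank before the start and 7.04% of the flank beyond the end. The median gap was 798 bp in the gene, against 3108 bp before its start and 3308 bp beyond its end. Of 89 gaps within the gene, 47 (52.8%) were under 1 kb, against 19.7% of gaps between members.

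Intervals lay in each part of the gene. Divided into 3 pieces of 57.5 kb, it held 24 intervals in the piece at its start, 35 in the middle one and 31 in the one at its end, or 41.7, 60.8 and 53.9 per 100 kb. The exact Poisson intervals of these densities overlap (26.7 to 62.1 at the start, 42.4 to 84.6 in the middle and 36.6 to 76.50 at the end). The 5 widest intervals were 963 bp (119572767 to 119573729), 927 bp (119584608 to 119585534), 830 bp (119606718 to 119607547), 774 bp (119504182 to 119504955) and 752 bp (119631111 to 119631862). They lay 97.7, 85.9, 63.8, 166 and 39.4 kb from the start, so none was near the promoter printed above. The longest gaps were 10918 bp (119533503 to 119544420) and 8916 bp (119643312 to 119652227), followed by the 7975 bp that take in the start. Series of close intervals stood between them. From 119521807 to 119533502, 11 intervals covered 36.3% of 11.7 kb. From 119561465 to 119575743, 12 intervals covered 23.6% of 14.3 kb. From 119606037 to 119615412, 11 intervals covered 46.2% of 9.38 kb.

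**Figure D4:**
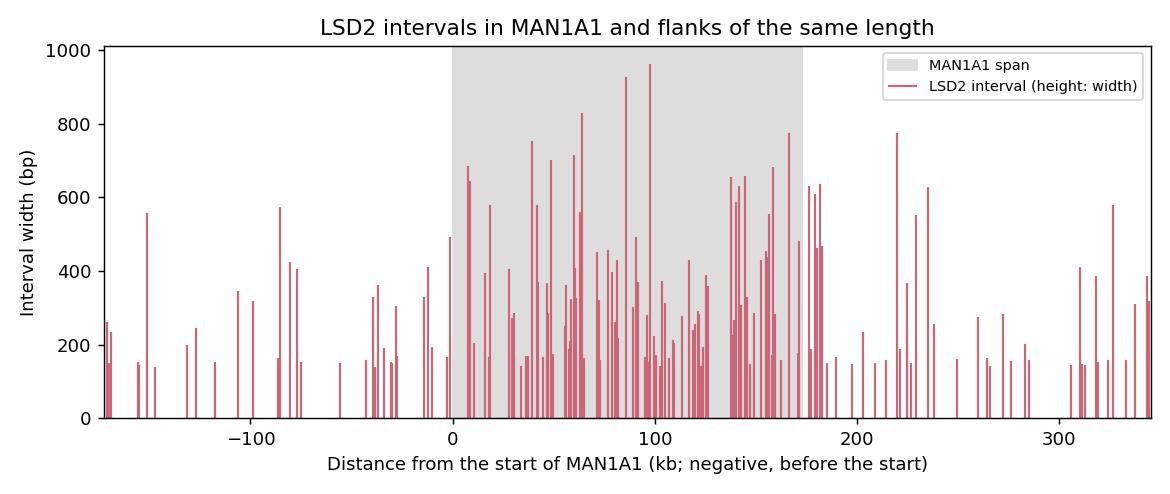
Each line is a LSD2 interval at its distance from the start of MAN1A1, with its width as height; the grey band is the gene and the white parts are flanks of the same length. The gene holds 90 intervals, against 32 in the flank before its start and 41 beyond its end.

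Series of intervals each within 2 kb of the next were mostly distal as well. Of 19 series with 10 intervals or more, 13 lay on distal 6q, 3 on 6p and 3 on proximal 6q. Distal 6q also held 11356 of the 26921 members and was the denser part of 6q. In MAN1A1, itself on distal 6q and chosen for its count, lay 3 of the 19. Such series on the other autosomes are not given here. Only 2, both on distal 6q, reached 15 intervals. One ran from 146248087 to 146269304, with 19 intervals of 255 bp median width that covered 23.5% of 21.2 kb. The other ran from 142710528 to 142723447, with 15 intervals of 240 bp that covered 29.8% of 12.9 kb. The next longest, with 14 intervals of 319 bp, ran from 144856785 to 144872781. On 6p a series of 10 intervals from 7290471 to 7303442 reached 531 bp in median width, the largest of the 19.

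Very wide intervals were few. Of 32 members of 1000 bp or more, 16 were on 6p, 12 on distal 6q and 4 on proximal 6q. These are 0.184% of the 6p intervals (95% Wilson interval 0.113% to 0.299%), 0.106% of the distal ones (0.0605% to 0.185%) and 0.0582% of the proximal ones (0.0226% to 0.150%), against 0.0966% on the other autosomes. The 3 Wilson intervals overlap. Of the 5 widest, 4 were on 6p and 1 on proximal 6q. The 6p intervals were 1654 bp (56263520 to 56265173), 1621 bp (1267449 to 1269069), 1568 bp (7409501 to 7411068) and 1536 bp (45167571 to 45169106). The proximal one, 1629 bp from 61913274 to 61914902, lay 31.6 kb from the 3.12 Mb without intervals between the arms. In the first 1 Mb after that stretch, 18 of 142 intervals reached 400 bp, whereas in the last 1 Mb of 6p before it 5 of 107 did.

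Some intervals stood on more than 1 line of the file, and part of these lay in long uninterrupted blocks. Of the members, 2380 (8.84%) were repeated, 2182 of them on 2 lines and 198 on 3 to 7. On the other autosomes 10.3% were repeated, and the members' share ranked 16 of 22 autosomes. The share was 12.8% on distal 6q (95% Wilson interval 12.2% to 13.4%), 4.06% on proximal 6q (3.62% to 4.55%) and 7.51% on 6p (6.98% to 8.09%). These Wilson intervals take each member as independent, so they are too narrow where repeats lie in blocks. Repeated members formed 551 blocks of successive repeated intervals, of which 220 were single intervals. The 20 blocks of 20 intervals or more held 38.1% of the repeated members. The longest block ran from 128290498 to 128846373, where all of 167 successive intervals were repeated. A block of 119 ran from 129202568 to 129836828, and one of 54 from 129901390 to 130035576. From 125000001 to 130000000, 564 of 1071 intervals were repeated, or 52.7%, whereas all of distal 6q held 1448 repeated intervals. The median width of repeated members was 205 bp and that of members on 1 line 180 bp. In MAN1A1 3 of 90 were repeated, while in the bin from 129900001 all 39 were. Since each interval was counted once, the repeats do not enter the densities above. No header or label says why lines repeat.

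**Figure D5:**
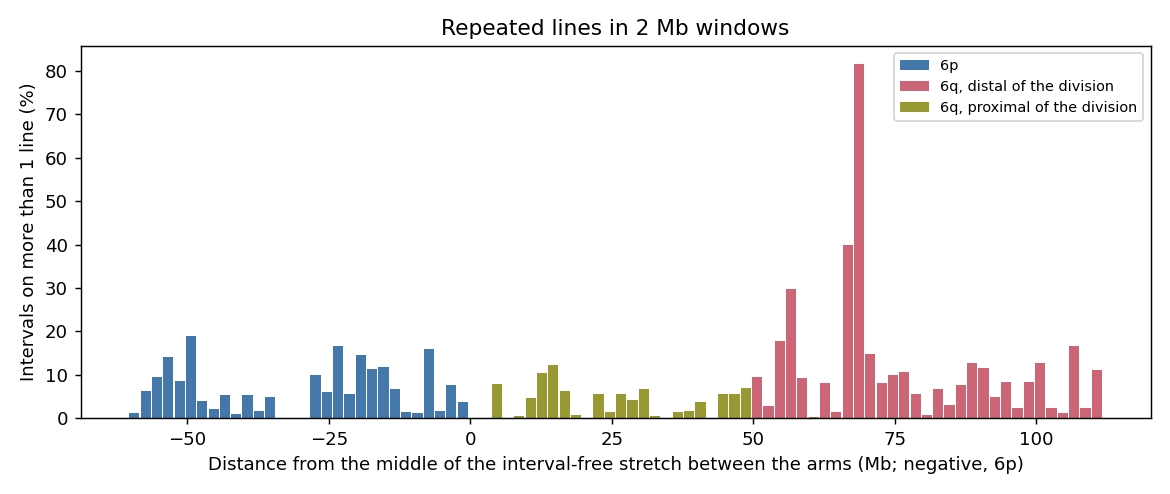
Share of member intervals that stand on more than 1 line, in 2 Mb windows along chromosome 6 by distance from the middle of the interval-free stretch between the arms, coloured by the centre of the window. The window from 128000001 to 130000000 reaches 81.7% of its 469 intervals, and the one before it 39.96% of 443.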

How the data were processed

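The labels name LSD2 ChIP (1 library) and input (1 library), and nothing says how many cultures they came from. Per the submitters' processing notes, BWA and hg19 were used. Per the file headers, the authors ran MACS on trimmed reads without duplicates, with input as control. Its settings there were 120 bp for read and fragment length, 2700 Mb for the genome, 1e-05 for the p-value limit and 32 for enrichment, with local biases on. The sources used here give neither tool versions nor depth, and a deeper library gives more and wider intervals. The deposited columns are start and end in bases, with no score. Starts were read as counting from 0 and are printed counting from 1.

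The 414095 lines gave 370863 distinct intervals, none overlapping another, which were placed by midpoint. Only bins and windows that lie wholly in searched sequence were counted. Gaps of 500 kb or more were not used. No test was run, since the rule, the divisions and the lists were chosen with earlier results of these data known, and 1 library a group gives no replicate error. The text names the 10 densest and 5 sparsest 100 kb bins, the bins of MAN1A1, the 5 widest intervals, the 3 longest series and the 5 densest and 3 sparsest 1 Mb windows, by a fixed rule; dense stretches, pieces of the gene, 10 Mb blocks and repeated lines were added after the values were seen. The planned gene lists and interval sequences were not run, since positions of another build were not used. Intervals of 95% on densities and ratios are exact, those on shares are Wilson intervals and those on medians come from binomial order statistics; they cover counting only. The functions were tested on simulated data. Python 3.11.15, pandas 2.3.3, NumPy 2.4.6 and SciPy 1.17.1 were used.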

Additional observations from a re-analysis of the deposited data

How the results depend on the processing

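All 30 alternatives were planned. No density ratio moved to the other side of 1, and a reversal was looked for in these ratios only. For members against the other autosomes (1.28 times the density), the ratio was 1.25 with every line counted, 1.37 among intervals of at least the median width of 173 bp, 1.44 among those of at least the 90th percentile of 387 bp and 1.30 with long interval-free stretches kept. For 6p against 6q (1.02) it was 1.06 at 173 bp and 1.11 at 387 bp. For distal against proximal 6q (1.35) it was 1.47 with every line counted, 1.56 at 173 bp and 1.96 at 387 bp. With the division 5 Mb earlier or later it was 1.34 or 1.32, and without the window of MAN1A1 1.34. For MAN1A1 against the other members (3.11) it was 4.51 at 173 bp and 9.86 at 387 bp. Dense bins numbered 618 of 3200 with bins of 50 kb, where the background was 10.8% and the densest bin was from 79700001 with 29 intervals in place of MAN1A1, and 614 of 1599 at 173 bp, where it was 20.7%. The Spearman correlation between count and width was 0.50 in 250 kb windows, 0.54 within 6p and 0.54 within proximal 6q, against 0.68. The cause of these shifts was not tested. The other 14 values stayed within a range set around the value reported. For density ratios this range was the exact counting interval. For dense bins it was a set band from 146.7 to 330 around 220, which is not a counting interval. Bins shifted by 50 kb gave 243 dense bins. For the Spearman correlation the range was an interval of the correlation, from 0.59 to 0.76, and the value within distal 6q was 0.65. No paired analysis was possible because LSD2 ChIP and input had a single library apiece. The unknown depth means that a stretch without intervals may hold LSD2 below the cutoff.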

Other observations

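The longest stretch without intervals between neighbouring members on chromosome 6, apart from that between the arms, was 156 kb on proximal 6q from 95679517 to 95835128, inside the sparsest 1 Mb window. The next were near the end of distal 6q, with 127.8 kb from 170913679 to 171041445 and 116.1 kb from 167929958 to 168046011. Others on proximal 6q measured 90.9 kb (from 68184482) and 89.1 kb (from 86877713), and the first of these lies in another of the 3 sparsest windows. Whether reads can be placed in these stretches was not analysed here. None is over 500 kb, so all of them count as searched sequence in the densities above.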
